A study of Mus musculus with 8 samples.

Results

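The genotype by busulfan interaction is the difference between the busulfan response of the Tent5c dcat/dcat testis and that of the Tent5c wt/wt testis, and it was computed from all 8 libraries of the series. The members of this comparison are the libraries themselves (8 of 8), and every one of the 2783 transcripts with deposited reads was tested on its read count, while the 339 transcripts read 10 times or more in all 8 were also tested on their mean poly(A) tail. TENT5C is a cytoplasmic non-canonical poly(A) polymerase, and the dcat allele of these C57BL/6 mice carries a catalytic-dead TENT5C in every cell. Adult males of either genotype received 1 intraperitoneal dose of busulfan at 20 mg/kg, or the vehicle of DMSO and water, and the whole testes were collected 4 weeks later. The 4 groups were wt/wt with vehicle, wt/wt with busulfan, dcat/dcat with vehicle and dcat/dcat with busulfan, with 2 mice in each. Poly(A) RNA was read by Nanopore direct RNA sequencing in 2 multiplexed libraries, and each of these held 1 barcoded mouse of each group. Replicate 1 and replicate 2 therefore name the multiplexed library, and the interaction could be taken within each of them.

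Busulfan is an alkylating agent that kills dividing spermatogonia, so the later germ cells disappear in sequence as they mature without being replaced. Spermatids that elongate replace their histones first with transition proteins and then with protamines, and they stop transcribing while they do so. Their messages, stored with poly(A) tails, are translated days later for the condensed nucleus, the flagellum and the sperm metabolism. Leydig cells, the steroid-producing cells between the tubules, are not dividing and remain. Because RNA of the whole testis was read, fewer cells of a type and less RNA per cell cannot be told apart, and every read level below is relative to the other transcripts of its library.

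The libraries held from 29574 reads (dcat/dcat vehicle, replicate 1) to 129074 reads (dcat/dcat vehicle, replicate 2). The replicates of the busulfan groups differed in germ cell transcripts in either genotype. Levels in CPM are reads scaled to library size, with TMM factors. The summed level of the 37 transcripts of the late spermatid markers was 24582 and 46230 CPM in replicates 1 and 2 of dcat/dcat busulfan. In wt/wt busulfan it was 9658 and 17380 CPM. The spermatocyte markers, 8 transcripts of 7 of the 15 listed genes, summed to 610.1 and 1499.7 CPM in dcat/dcat busulfan and to 484.2 and 677.9 CPM in wt/wt busulfan. Taken as the ratio of replicate 2 to replicate 1, the gap within dcat/dcat busulfan was wider than that within wt/wt busulfan for spermatocyte markers and for chromatin condensation genes (15816 and 34135 CPM against 3167 and 4472 CPM). This ratio was smaller for round spermatid markers (2441 and 3075 CPM against 1060 and 2156 CPM), acrosome genes (2264 and 3977 CPM against 1008 and 2024 CPM) and sperm tail genes (8060 and 13041 CPM against 5340 and 9264 CPM). As a difference in CPM, the gap of acrosome and sperm tail genes was wider in dcat/dcat busulfan. Only 2 of 12 spermatogonial markers (Uchl1 and Ddx4) had reads in the table, with sums of 273.0 and 804.2 CPM in dcat/dcat busulfan and 274.8 and 226.0 CPM in wt/wt busulfan, and the other 10, among them Gfra1, Zbtb16 and Kit, had none. The part of these cell markers in the results below was not tested, and calls and list medians are given also without dcat/dcat busulfan replicate 2. Tent5c itself, which the catalytic mutation does not remove from the RNA, had 42 and 56 reads in wt/wt vehicle, 18 and 31 in wt/wt busulfan, 22 and 115 in dcat/dcat vehicle and 24 and 66 in dcat/dcat busulfan. Its interaction of 1.01 on the log2 scale (SE 0.56) was not called, at an adjusted p of 0.399 in edgeR's quasi-likelihood test.

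Of the 9 transcripts with a called count interaction, 4 encode proteins that pack sperm DNA. The transition proteins and the protamines lie on 2 chromosomes, with Prm1, Prm2 and Tnp2 side by side on chromosome 16 and Tnp1 on chromosome 1. The 120 bases before the RefSeq start of each gene (build GRCm38.p6, 5′ to 3′) are shown because all 4 transcripts were called in the same direction, with any match to TATAAA or TGACG on either strand in capitals.
Prm2, chr16:10792106-10792225, minus strand: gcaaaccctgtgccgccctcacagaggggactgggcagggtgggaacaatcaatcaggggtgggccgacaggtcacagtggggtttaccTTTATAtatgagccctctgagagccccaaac
Prm1, chr16:10796824-10796943, minus strand: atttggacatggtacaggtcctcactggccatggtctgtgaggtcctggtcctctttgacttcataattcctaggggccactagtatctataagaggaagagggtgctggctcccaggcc
Tnp2, chr16:10788656-10788775, minus strand: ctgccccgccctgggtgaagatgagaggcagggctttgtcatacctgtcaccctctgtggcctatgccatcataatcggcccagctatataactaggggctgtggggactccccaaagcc
Tnp1, chr1:73015900-73016019, minus strand: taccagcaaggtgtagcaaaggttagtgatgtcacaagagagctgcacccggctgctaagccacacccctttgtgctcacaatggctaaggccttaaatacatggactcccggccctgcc

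Over the whole promoter window of 300 bases, 1 of the 9 genes with a called count interaction held TATAAA on either strand (11.1%; Prm2, at position -31 from the start), against 9.31% of the 1805 tested genes with a promoter in the table. None of the 9 held TGACG or the longer TGACGTCA, which 34% and 3.99% of the tested genes held, and TGACG is part of TGACGTCA. Of the 97 promoters of genes called with the replicate block below, 21.6% held TGACG and 8.25% TATAAA. The RefSeq start did not always lie at the annotated 5′ end of the transcript read here. Its offset, positive inside the transcript, was 63 bases for Prm1, 39 for Spata6, 15 for Spem1, 10 for Tnp1 and 5 for Tnp2. The stretches shown for Prm1, Tnp1 and Tnp2 therefore overlap the annotated transcript. The offset was -20 bases for 4933411K16Rik and -6339 for Gapdhs, so the Gapdhs window is not the promoter of the transcript read.

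The reads of 9 transcripts fell less after busulfan in dcat/dcat than in wt/wt testes, and no transcript had a called interaction in the other direction. These 9 of 2783 were called at an adjusted p under 0.05 (0.323% of transcripts tested), and they belong to 9 genes. They were Prm1, Prm2, Tnp1 and Tnp2, Spem1, Spata6, Cby2, Gapdhs and 4933411K16Rik. At an unadjusted p under 0.05 there were 399 transcripts higher (14.3%) and 52 lower (1.87%). Over all transcripts the median interaction was 0.28 on the log2 scale, so the values below stand on a small general shift upward.

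Protamine 2, the main protamine of the mouse sperm head, had 1182 and 1877 reads of Prm2 in wt/wt vehicle and 149 and 155 in wt/wt busulfan. In dcat/dcat testes Prm2 had 589 and 3280 reads with vehicle and 588 and 1028 with busulfan. In CPM, Prm2 stood at 8.52% and 5.44% of vehicle in replicates 1 and 2 of wt/wt, and at 48.3% and 42.6% in replicates 1 and 2 of dcat/dcat. Both dcat/dcat busulfan libraries lay above both wt/wt busulfan libraries, which the choice of called transcripts favours, and the vehicle groups overlapped. The interaction was 2.72 on the log2 scale (SE 0.42, adjusted p = 0.00108), and it was 2.49 within multiplexed library 1 and 2.95 within library 2. It was called under all 13 alternatives tried, including the fit without the dcat/dcat busulfan replicate 2 library (2.59, adjusted p = 0.00575).

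Prm1, which encodes the protamine shared by most mammals, fell to 2.18% and 3.54% of vehicle in replicates 1 and 2 of wt/wt and to 9.49% and 33.3% in dcat/dcat. Its reads were 1455 and 2417 in wt/wt vehicle, 47 and 130 in wt/wt busulfan, 765 and 3959 in dcat/dcat vehicle and 150 and 969 in dcat/dcat busulfan. The interaction of Prm1 was 2.94 (SE 0.61, adjusted p = 0.0223). It was lost without dcat/dcat busulfan replicate 2, with 1.51 at an adjusted p of 0.415.

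The transition proteins, which sit on the DNA between the histones and the protamines, followed the same order. Tnp1 stood at 1.55% and 3.59% of vehicle in wt/wt and at 8.96% and 28.2% in dcat/dcat, and its interaction was 2.82 (SE 0.60, adjusted p = 0.0270). Tnp2 stood at 1.34% and 4.33% of vehicle in wt/wt and at 14.3% and 29.2% in dcat/dcat, and its interaction was 2.93 (SE 0.60, adjusted p = 0.0223). For both, the busulfan libraries of the genotypes did not overlap, which their choice as called transcripts favours. Without dcat/dcat busulfan replicate 2 neither was called (1.63 at an adjusted p of 0.339 for Tnp1 and 2.01 at an adjusted p of 0.201 for Tnp2). As a share of all reads, the 5 transcripts of these 4 genes took 8.46% and 9.69% in wt/wt vehicle, 0.350% and 0.384% in wt/wt busulfan, 7.88% and 9.19% in dcat/dcat vehicle and 1.55% and 3.06% in dcat/dcat busulfan.

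The 2 remaining transcripts with the smallest adjusted p, both at 0.00108, were 4933411K16Rik and Spem1. 4933411K16Rik, a transcript on chromosome 19 (chr19:42052248-42053627) named only by its cDNA clone, had 110 and 144 reads in wt/wt vehicle, 10 and 16 in wt/wt busulfan, 44 and 243 in dcat/dcat vehicle and 82 and 109 in dcat/dcat busulfan. It stood at 6.14% and 7.32% of vehicle in wt/wt and at 90.2% and 61.0% in dcat/dcat, where its busulfan response of -0.47 on the log2 scale was not called (adjusted p = 0.206). Its interaction was 3.40 (SE 0.51), the call held under all 13 alternatives, and without dcat/dcat busulfan replicate 2 the value was 3.47 at an adjusted p of 5.92e-05. Spem1, which encodes a protein needed to shed the cytoplasm from the sperm neck, had 50 and 59 reads in wt/wt vehicle and 1 read in each wt/wt busulfan library, against 22 and 101 in dcat/dcat vehicle and 20 and 32 in dcat/dcat busulfan. The wt/wt ratio of busulfan to vehicle was 1.22%, with a 95% exact counting interval of 0.146% to 4.52%, and dcat/dcat stood at 44.0% and 43.1% of vehicle. The interaction of Spem1 was 4.96 (SE 0.79), and it was called under 12 of 13 alternatives, all but the fit without wt/wt busulfan replicate 2 (adjusted p = 0.0575). In these 2 transcripts and in Prm2, unlike in Prm1, Tnp1 and Tnp2, the replicates of dcat/dcat busulfan lay close to each other. In vehicle, both dcat/dcat libraries lay below both wt/wt libraries for 4933411K16Rik (1460.2 and 1941.1 CPM against 2130.6 and 2059.0 CPM). The same held for Spem1 (730.1 and 806.8 CPM against 968.5 and 843.6 CPM). Neither vehicle difference between the genotypes was called.

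**Figure D1:**
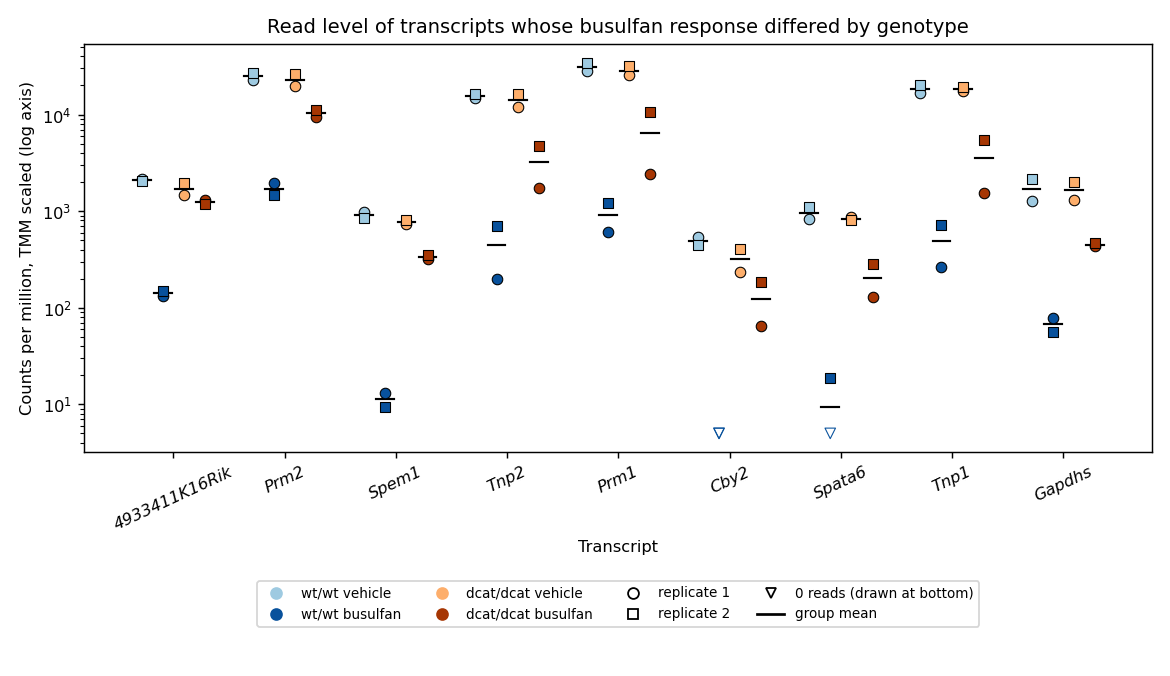
Read level of the 9 transcripts with a called count interaction, in TMM-scaled CPM on a log axis, with 1 point per mouse (circle, replicate 1; square, replicate 2), lines for group means and open triangles for libraries with 0 reads. The vehicle groups overlap except in 4933411K16Rik, Spem1 and Cby2, where both dcat/dcat vehicle points lie below both wt/wt vehicle points. Every dcat/dcat busulfan point lies above both wt/wt busulfan points of its transcript, which the choice of called transcripts favours.

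Gapdhs, the sperm form of glyceraldehyde-3-phosphate dehydrogenase that is bound to the fibrous sheath of the tail, was read as several transcripts. ENSMUST00000182067, annotated as a target of nonsense-mediated decay, had 65 and 151 reads in wt/wt vehicle, 6 and 6 in wt/wt busulfan, 39 and 248 in dcat/dcat vehicle and 27 and 43 in dcat/dcat busulfan, with an interaction of 2.78 (SE 0.62, adjusted p = 0.0409). Without dcat/dcat busulfan replicate 2 it was not called (2.71, adjusted p = 0.0971). A second Gapdhs transcript, ENSMUST00000182634, had nearly the same end and an interaction of 3.12 (SE 0.74) at an adjusted p of 0.05003, and reads between such isoforms may be shared out uncertainly.

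Spata6 and Cby2 were called outside the rule for named transcripts, because their wt/wt busulfan libraries held almost no reads, and both are named after their values were seen. Spata6 encodes a protein needed for the connecting piece that joins the sperm head to the tail. A second Spata6 transcript, ENSMUST00000084354, had an interaction of 4.14. It was not called (adjusted p = 0.0607), except with the replicate block below (adjusted p = 0.0462). The called Spata6 transcript, ENSMUST00000143879, is annotated as a processed transcript and not as protein-coding. It had 43 and 77 reads in wt/wt vehicle, 0 and 2 in wt/wt busulfan, 26 and 101 in dcat/dcat vehicle and 8 and 26 in dcat/dcat busulfan. Its wt/wt ratio of busulfan to vehicle was 1.11% (95% exact counting interval 0.133% to 4.10%), dcat/dcat stood at 14.9% and 35%, and the adjusted p was 0.0223. Cby2, also known as Spert, had 28 and 31 reads in wt/wt vehicle, 0 in both wt/wt busulfan libraries, 7 and 51 in dcat/dcat vehicle and 4 and 17 in dcat/dcat busulfan. Both dcat/dcat vehicle libraries of Cby2 lay below both wt/wt ones (232.3 and 407.4 CPM against 542.3 and 443.3 CPM), a difference that was not called. Against a floor of 3 reads per library, Cby2 was at least 14.6-fold lower after busulfan in wt/wt, and the difference between the responses was at least 5.68-fold (adjusted p = 0.0223). Without dcat/dcat busulfan replicate 2 neither was called (adjusted p = 0.201 for Spata6 and 0.222 for Cby2).

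A further 8 transcripts sat just over the threshold, all at an adjusted p of 0.05003, and 47 lay between 0.05 and 0.06. The 8 were Ldhc, Garin1a, Spz1, Ccdc179, Phkg2, Gstt4, 1700013G24Rik and the second Gapdhs transcript, and all but Ldhc are named after their values were seen. Ldhc, the lactate dehydrogenase of the germ line, had 332 and 511 reads in wt/wt vehicle, 17 and 35 in wt/wt busulfan, 144 and 954 in dcat/dcat vehicle and 44 and 175 in dcat/dcat busulfan. It stood at 3.46% and 4.51% of vehicle in wt/wt and 14.8% and 25% in dcat/dcat, with an interaction of 2.37 (SE 0.55). Spz1, a germ cell transcription factor, stood at 7.02% and 7.95% of vehicle in wt/wt and 33.5% and 38.2% in dcat/dcat, with an interaction of 2.23 (SE 0.53). Phkg2, a catalytic subunit of phosphorylase kinase, had 1 and 2 reads in wt/wt busulfan and 7 and 16 in dcat/dcat busulfan.

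**Figure D2:**
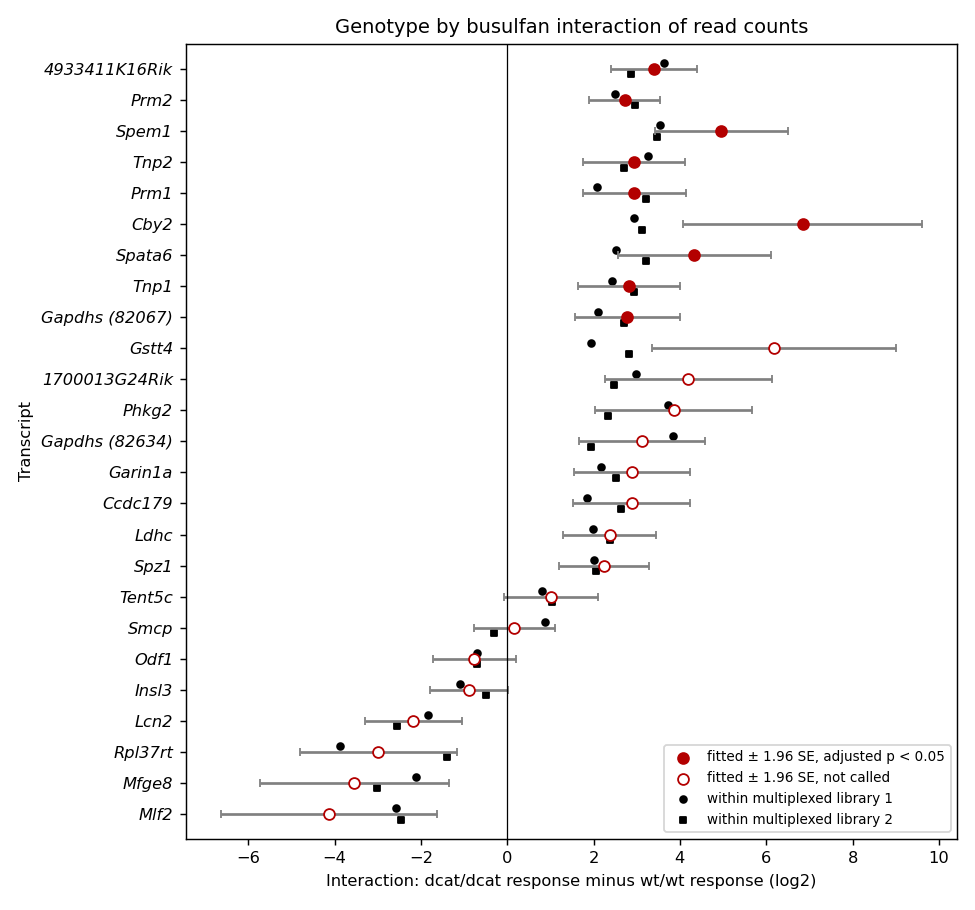
Count interaction, as the dcat/dcat busulfan response minus the wt/wt one on the log2 scale, for the called transcripts (filled), the next 8 by p, the 4 lowest by p and 4 transcripts of the fixed list (open), with bars for 95% intervals. Small black symbols give the same difference within multiplexed library 1 (circle) and 2 (square), where a prior count pulls transcripts with few reads, such as Cby2, toward 0.

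With the replicate number as a block, 123 transcripts were called, 122 higher (4.38% of those tested) and 1 lower, and they included all 9 called without the replicate block. The 122 came from 111 genes. All 122 fell after busulfan in wt/wt at an adjusted p under 0.05, which their choice by the interaction favours. In dcat/dcat 98 of them fell at that threshold, 24 were not called and none rose. Their median busulfan response was -5.01 on the log2 scale in wt/wt and -1.84 in dcat/dcat, against 0.09 and 0.14 for all transcripts. None of the 122 had a called count difference between the genotypes in vehicle, and neither had transcripts outside them such as Insl3 and Odf1. With 2 mice a group, this does not show that the levels in vehicle were equal. The interaction was above 0 within both multiplexed libraries in 122 of the 122, which the choice of these transcripts favours, and in 1101 of all 2783 (39.6%). In 116 of the 122, dcat/dcat busulfan replicate 2 was the higher of its group. In wt/wt busulfan, 59 of the 122 had 3 reads or fewer over both libraries and 18 had none, so their fitted folds depend on the prior count.

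Most of the 122 transcripts called higher with the replicate block were on none of the lists. Late spermatid markers made up 17 of the 122, which is 45.9% of that list against 4.38% of all transcripts. The chromatin condensation list counted 9 of its 11 transcripts called with the block (81.8%, against 4.38% of all), 4 without it, and none lower. Beside the protamines and transition proteins these were Prm3 (2.96, adjusted p = 0.0239), the linker histone H1f7 (3.0, adjusted p = 0.0230), the linker histone H1f9 (2.71, adjusted p = 0.0179), the high mobility group protein Hmgb4 (2.37, adjusted p = 0.0250) and the nuclear protein Tsga8 (3.10, adjusted p = 0.0249), all from the fit with the block. The list had a median interaction of 2.72, against 0.28 for all transcripts, and without dcat/dcat busulfan replicate 2 it was 1.51, against 0.07 for all transcripts. Its summed level stood at 3.49% and 4.19% of vehicle in replicates 1 and 2 of wt/wt, and at 19.2% and 33.4% in dcat/dcat.

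Late spermatid markers counted 6 of 37 transcripts called higher, 17 with the replicate block (45.9%) and none lower, with a median interaction of 2.22 (1.44 without dcat/dcat busulfan replicate 2). The lists overlap, so their counts are not independent. The 6 include Prm1, Prm2, Tnp1 and Tnp2, and the 17 include every chromatin condensation transcript called with the block but Tsga8. Gapdhs is also on the sperm tail and glycolysis lists, and Akap4 and Odf2 are also on the sperm tail list. The members of the late spermatid list differed among themselves. Smcp, the cysteine-rich protein associated with sperm mitochondria, had an interaction of 0.17 (SE 0.48, adjusted p = 0.934), at 35.7% and 78.9% of vehicle in wt/wt and 66.1% and 63.2% in dcat/dcat. Odf1, the main outer dense fibre protein of the sperm tail, had an interaction of -0.76 (SE 0.49, adjusted p = 0.50). Its reads stood at 31.3% and 54.0% of vehicle in wt/wt and 18.9% and 32.9% in dcat/dcat, in the opposite order to the protamines. Akap4, the major protein of the fibrous sheath, was called with the block in 2 transcripts (4.25 at an adjusted p of 0.0175 and 2.33 at an adjusted p of 0.0363), as was Odf2, the second outer dense fibre protein (3.50 at an adjusted p of 0.0277 and 2.57 at an adjusted p of 0.0457).

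Further germ cell lists had medians above that of all transcripts, and each median is followed in brackets by its value without dcat/dcat busulfan replicate 2, when that of all transcripts was 0.07. Sperm tail genes counted 1 of 46 called (Gapdhs), 10 with the block and a median of 1.78 (1.30), with Smcp, Ropn1l (1.14, adjusted p = 0.264) and Odf1 the most read. Acrosome and fusion genes counted none of 27 called, 3 with the block (Adam5, Spaca9 and Actl9) and a median of 1.77 (0.76), and their most read member, Crisp2, had 0.19. Round spermatid markers counted none of 14 called, 1 with the block (Tssk2, a testis kinase) and a median of 1.31 (0.59). Spermatocyte markers counted none of 8 in either fit and a median of 1.14 (0.01), so that without this library it lay below that of all transcripts. Testis glycolysis genes counted 1 of 24 called, 4 with the block (Ldhc and 3 Gapdhs transcripts) and a median of 1.05 (0.67). The gene families that follow are not lists by cell type. All their transcripts called with the block fell after busulfan in wt/wt, as did all 122 called higher with it. Heat shock and chaperonin genes counted none of 50 called and a median of 0.46 (0.19). With the block 4 were called (8%, against 4.38% of all transcripts), Dnajb3, Dnajb8, Hspa1l and Hspa4l. The list of glutathione S-transferase and peroxidase genes also took in thioredoxin domain genes. It counted none of 35 called and a median of 0.35 (0.05, below that of all transcripts). With the block 3 were called (8.57%), Gstt4 and the thioredoxin domain genes Txndc2 and Txndc8. Poly(A) tail machinery genes counted none of 10 in either fit and a median of 0.99 (0.47), with Pabpc1, the poly(A) binding protein, at 0.52 (adjusted p = 0.745). Because many of these transcripts had 3 reads or fewer in each library of a group, the medians with such groups set to 3 reads were 2.72 for chromatin condensation, 2.22 for late spermatids, 1.13 for sperm tail and 1.16 for acrosome genes, against 0.21 for all transcripts.

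**Figure D3:**
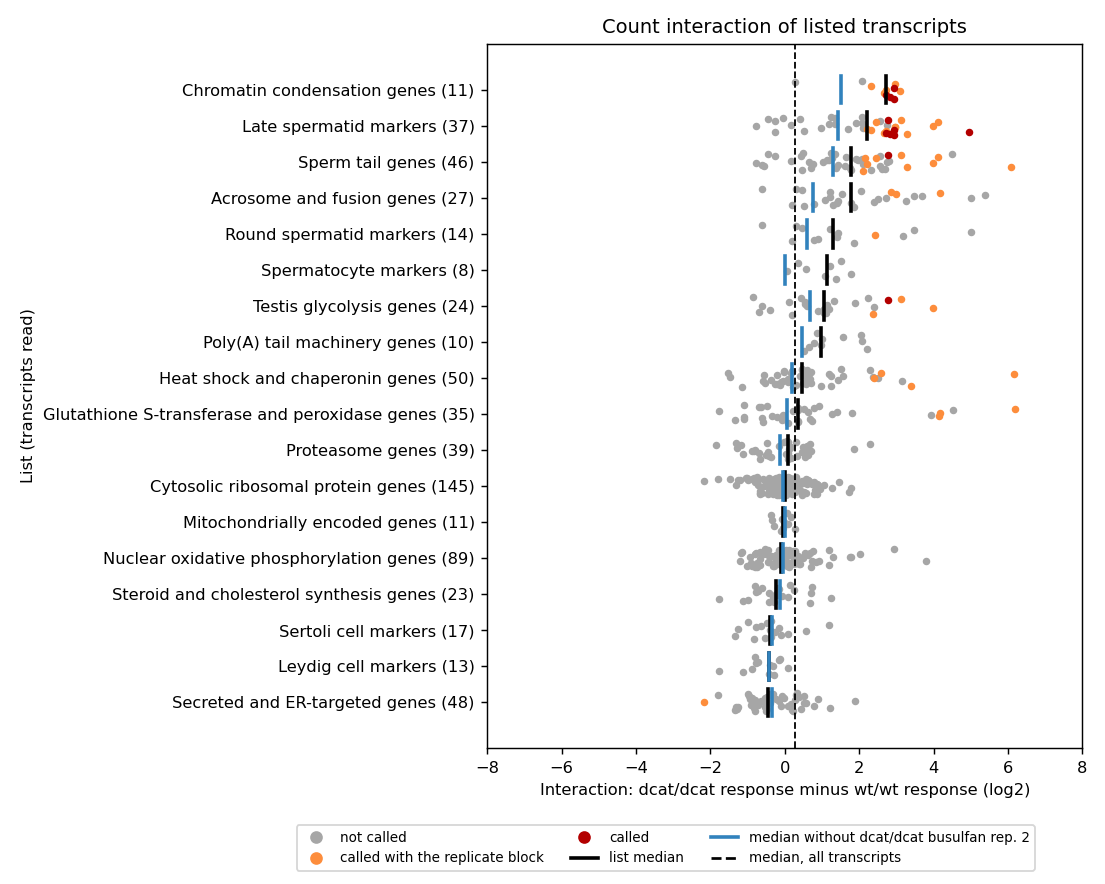
Count interaction on the log2 scale of every transcript of each list with at least 8 transcripts read, with black bars for the list medians, blue bars for the medians without dcat/dcat busulfan replicate 2 and a dashed line at the median of all transcripts (0.28). Called transcripts (red) and those called with the replicate block (orange) lie to the right in germ cell lists and in the heat shock and glutathione lists (4 and 3 orange points, the latter with 2 thioredoxin domain genes). One orange point lies to the left, Lcn2.

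On the lower side, where the busulfan response was smaller or more negative in dcat/dcat, no transcript was called without the block. Lcn2, which encodes the secreted iron-siderophore carrier lipocalin 2, was the 1 transcript called lower with the replicate block (-2.23, SE 0.55, adjusted p = 0.0172), and it is named after its values were seen. It had 28 and 34 reads in wt/wt vehicle, 441 and 1054 in wt/wt busulfan, 24 and 46 in dcat/dcat vehicle and 144 and 118 in dcat/dcat busulfan. In CPM, it stood at 1064% and 2041% of vehicle in wt/wt and at 290.3% and 349.0% in dcat/dcat. Both wt/wt busulfan libraries lay above both dcat/dcat ones, which the choice of Lcn2 by its values favours. The interaction without the block was -2.17 (SE 0.57, adjusted p = 0.0539).

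Medians without dcat/dcat busulfan replicate 2 are again in brackets, beside 0.07 for all transcripts. Leydig cell markers, 13 transcripts of 9 of the 14 listed genes, had a median interaction of -0.44 (-0.42) and none called in either fit. Of these 13 transcripts, 12 were below 0, against 1057 of all 2783. Within both multiplexed libraries 6 of the 13 were below 0, against 22.4% of all. The summed level of the Leydig cell markers was 39118 and 53626 CPM in wt/wt busulfan and 28099 and 24832 CPM in dcat/dcat busulfan. In vehicle it was 5559 and 6277 CPM against 7102 and 4130 CPM. Insl3, the Leydig cell hormone, made up most of it. It had 206 and 302 reads in wt/wt vehicle, 2082 and 4197 in wt/wt busulfan, 141 and 277 in dcat/dcat vehicle and 930 and 1329 in dcat/dcat busulfan, with an interaction of -0.88 (SE 0.46, adjusted p = 0.361). Sertoli cell markers, 17 transcripts of 14 of 20 genes, had a median of -0.41 (-0.35) and none called. Of these 17 transcripts, 14 were below 0, and 10 were below 0 within both multiplexed libraries. Steroid and cholesterol synthesis genes counted none of 23 called and a median of -0.24 (-0.12). Secreted and ER-targeted genes counted none of 48 called, 1 lower with the block (Lcn2) and a median of -0.44 (-0.34). Ptgds, the prostaglandin D synthase, had a count interaction of -0.02 (SE 0.53, adjusted p = 0.995).

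Other somatic markers were sparse. Macrophage markers had reads for 4 of 15 genes, with sums of 968.5 and 1271.0 CPM in wt/wt busulfan and 899.2 and 804.2 CPM in dcat/dcat busulfan, and peritubular markers for 3 of 7. None of the 7 endothelial markers had reads in the table. Of 5 erythroid markers, Hbb-bs and Hba-a2 were read, with sums of 174.3 and 300.3 CPM in wt/wt vehicle, 798.3 and 837.9 CPM in wt/wt busulfan, 132.7 and 15.98 CPM in dcat/dcat vehicle and 0 and 21.7 CPM in dcat/dcat busulfan. Neither was called, and their median interaction was -3.59 (-2.56 at the floor of 3 reads per library, and -5.13 without dcat/dcat busulfan replicate 2). The medians of housekeeping lists lay near 0. Cytosolic ribosomal protein genes had a median interaction of -0.01 over 145 transcripts, nuclear oxidative phosphorylation genes -0.09 over 89, proteasome genes 0.09 over 39 and the 11 mitochondrially encoded transcripts -0.06, with none called in either fit. Without dcat/dcat busulfan replicate 2 these medians were -0.05, -0.04, -0.13 and 0.004 in that order. The mitochondrial share of reads was 4.82% and 4.48% in wt/wt vehicle, 15.4% and 14.8% in wt/wt busulfan, 6.08% and 4.38% in dcat/dcat vehicle and 16.2% and 14% in dcat/dcat busulfan. Its interaction of -0.59 percentage points had a two-sided exact permutation p of 0.722 over 36 arrangements of the genotype labels within treatment, a design that cannot give less than 0.0556.

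Over all reads, the interaction of the mean tail was smaller than the spread between replicates and differed in sign between the multiplexed libraries. The mean tail over all reads was 138.7 and 140.7 nt in wt/wt vehicle, 112.1 and 115.4 nt in wt/wt busulfan, 134.4 and 144.4 nt in dcat/dcat vehicle and 110.8 and 114.6 nt in dcat/dcat busulfan. Its interaction was -0.77 nt (two-sided exact permutation p = 0.833 over the same 36 arrangements, which do not keep the multiplexed libraries together and cannot give less than 0.0556), with 3.09 nt within multiplexed library 1 and -4.62 nt within library 2. Of the 339 transcripts tested 1 by 1 with limma, 3 had a called interaction (0.885%), Insl3 and Jak3 with a relative shortening in dcat/dcat and Oaz3 with a smaller shortening there. At an unadjusted p under 0.05 there were 17 transcripts longer (5.01%) and 8 shorter (2.36%). In all 17 the wt/wt tail was shorter after busulfan, which their choice by a positive interaction favours. Over all 339 transcripts the median tail change after busulfan was -19.9 nt in wt/wt and -18.4 nt in dcat/dcat. The replicate block called the same number, 3, and all of them were the same transcripts.

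The last 30 bases of the transcripts on which the tail results turn are given, since the tail is added after the final base. They are taken from GENCODE vM21 on GRCm38, 5′ to 3′, with the cleavage signal AATAAA in capitals, which 54.0% of the 337 tested transcripts with a vM21 sequence hold in this window.
Insl3, chr8:71690546-71690575, plus strand: ccaaaaagtctaAATAAAaaagcaacttca
Jak3, chr8:71690546-71690575, plus strand: ccaaaaagtctaAATAAAaaagcaacttca
Ptgds, chr2:25466709-25466738, minus strand: caaagaAATAAAagtccaaagcaagtcaga
Oaz3, chr3:94433387-94433416, minus strand: tcctaggaAATAAAgggtagtgcaatcaaa
Crisp2, chr17:40764734-40764763, minus strand: ttctttcAATAAAgaactcaagctaccaca
Tppp2, chr14:51920671-51920700, plus strand: taggaaatAATAAAcgatgtgtgtgcagca
The Insl3 and Jak3 transcripts end at the same base of chromosome 8 with the same sequence, as the Jak3 transcript is annotated through the Insl3 gene, so reads of this end given to Jak3 cannot be separated with certainty from those of Insl3.

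The tail of Insl3 was shorter after busulfan in dcat/dcat, and in wt/wt no change was called. Its mean tail was 168.3 and 183.4 nt in wt/wt vehicle, 180.9 and 187.1 nt in wt/wt busulfan, 148.4 and 143.5 nt in dcat/dcat vehicle and 105.4 and 109.9 nt in dcat/dcat busulfan. The wt/wt difference of 8.18 nt was not called (adjusted p = 0.173), while the dcat/dcat tail fell by 38.3 nt (adjusted p = 0.000989). The interaction was -46.5 nt (SE 6.20, adjusted p = 0.00979), with -55.5 nt within multiplexed library 1 and -37.4 nt within library 2. It was called under 15 of 16 alternatives, in each fit without 1 library among them, and not in the fit without a variance trend (adjusted p = 0.190). The dcat/dcat tail was already shorter in vehicle, by -29.9 nt (adjusted p = 0.0211), a comparison that shares its libraries with the interaction. The share of Insl3 reads with a tail of 30 to 120 nt was 3.46% (95% Wilson interval 2.76% to 4.33%) and 3.0% (2.53% to 3.56%) in wt/wt busulfan. In dcat/dcat busulfan it was 61.2% (58.0% to 64.3%) and 59.6% (56.9% to 62.2%). In vehicle it was 16.5% and 9.27% in wt/wt and 20.6% and 31.0% in dcat/dcat, so the groups lay farther apart after busulfan.

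Jak3, which encodes a cytokine receptor kinase of blood cells, had mean tails of 134.3 and 141.4 nt in wt/wt vehicle, 170.4 and 176.9 nt in wt/wt busulfan, 117.2 and 140.6 nt in dcat/dcat vehicle and 105.7 and 102.1 nt in dcat/dcat busulfan. Its interaction was -60.8 nt (SE 11.1, adjusted p = 0.0422), called under 6 of 15 alternatives, and it was lost without any 1 of the 4 wt/wt libraries or of the dcat/dcat busulfan libraries (-49.1 to -72.5 nt over the fits without 1 library). Ptgds, a lipocalin-type enzyme that is secreted, had mean tails of 156.3 and 177.9 nt in wt/wt vehicle, 189.8 and 189.3 nt in wt/wt busulfan, 142.4 and 133.8 nt in dcat/dcat vehicle and 117.3 and 127.0 nt in dcat/dcat busulfan. Its wt/wt tail was 22.5 nt longer after busulfan (adjusted p = 0.0336) and its dcat/dcat tail changed by -16.0 nt (adjusted p = 0.115). The interaction of Ptgds, -38.5 nt (SE 10.3), was not called (adjusted p = 0.180), with -58.7 nt and -18.2 nt within the multiplexed libraries.

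Oaz3, the antizyme of the late spermatid that restrains polyamine synthesis, showed the opposite order. The tail of ENSMUST00000199678 was 143.0 and 148.5 nt in wt/wt vehicle, 68.6 and 63.9 nt in wt/wt busulfan, 145.1 and 149.1 nt in dcat/dcat vehicle and 111.8 and 126.9 nt in dcat/dcat busulfan. It fell by 79.5 nt in wt/wt (adjusted p = 0.000114) and by 27.7 nt in dcat/dcat (adjusted p = 0.0158), an interaction of 51.8 nt (SE 9.61, adjusted p = 0.0422). Tails of 30 to 120 nt were 87.8% (75.8% to 94.3%) and 83.5% (77.0% to 88.5%) of its reads in wt/wt busulfan and 64.7% (47.9% to 78.5%) and 41.7% (32.8% to 51.1%) in dcat/dcat busulfan. The call held under 6 of 16 alternatives, and of the fits without 1 library it held in 1, that without dcat/dcat busulfan replicate 1. A second Oaz3 transcript with the same end, ENSMUST00000203883, had an interaction of 43.2 nt that was not called (adjusted p = 0.453). The read count of Oaz3 had an interaction of 0.42 on the log2 scale, which was not called (adjusted p = 0.826).

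**Figure D4:**
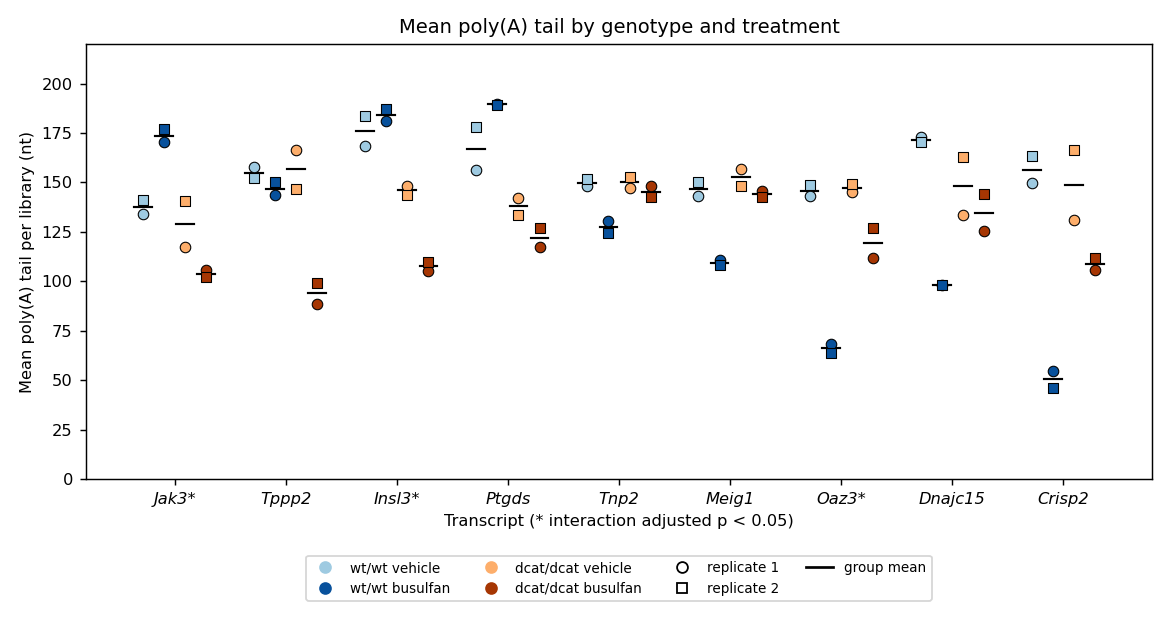
Mean poly(A) tail in nt of each mouse for the transcripts with the smallest interaction p in either direction, ordered by their interaction, with 1 point per mouse (circle, replicate 1; square, replicate 2) and lines for group means. Jak3, Insl3 and Oaz3 (asterisks) had a called interaction, and dcat/dcat busulfan lies below wt/wt busulfan on the left and above it on the right.

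The remaining transcripts with the smallest tail p were not called. In the longer direction Crisp2, a cysteine-rich secretory protein of the acrosome and tail, went from 149.7 and 163.4 nt to 54.9 and 46.1 nt in wt/wt and from 131.0 and 166.3 nt to 105.5 and 111.8 nt in dcat/dcat, an interaction of 66.0 nt (SE 15.6, adjusted p = 0.164). Dnajc15, a chaperone partner of the inner mitochondrial membrane, had 60.0 nt, Meig1, needed for the manchette of elongating spermatids, 28.7 nt and Tnp2 17.8 nt, each at an adjusted p of 0.180. In the shorter direction Tppp2, a tubulin-binding protein of the sperm tail, had tails of 157.7 and 152.3 nt, then 143.5 and 150.3 nt in wt/wt, and of 166.4 and 146.7 nt, then 88.6 and 99.2 nt in dcat/dcat, an interaction of -54.6 nt (SE 14.2, adjusted p = 0.180). The mitochondrial mt-Co1, whose tails stayed between 69.1 and 73.6 nt in all 8 libraries, had -4.46 nt (adjusted p = 0.453).

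The transcripts of the fixed list that were tested on tails and are not yet described also had no called tail interaction. Odf1 had mean tails of 184.8 and 191.1 nt in wt/wt busulfan and 116.3 and 159.2 nt in dcat/dcat busulfan, from 181.6 and 177.1 nt and 167.4 and 168.5 nt in vehicle, an interaction of -38.7 nt (SE 15.6, adjusted p = 0.582). Without dcat/dcat busulfan replicate 2, in which its tail was the longer of the pair, the interaction of Odf1 was -60.2 nt. The remaining library of that group held 41 Odf1 reads. Smcp had -23.6 nt (adjusted p = 0.670), Ldhc -13.6 nt (adjusted p = 0.696) and Tent5c -4.39 nt (adjusted p = 0.957). Of the transcripts with a called count interaction, 5 were read often enough for a tail test. Prm2 had a tail interaction of 7.34 nt (adjusted p = 0.944), with tails of 105.4 ± 17.5 nt (SD, n = 2) in wt/wt busulfan and 112.3 ± 24.95 nt in dcat/dcat busulfan. Prm1 had 16.7 nt (adjusted p = 0.628), Tnp1 6.72 nt (adjusted p = 0.924) and 4933411K16Rik 37.7 nt (adjusted p = 0.453), with the value of Tnp2 given above. Thus no transcript was called on both counts and tails. Odc1, the polyamine enzyme that antizymes restrain, was read too little for a tail test and had a count interaction of 0.16 (SE 0.67, adjusted p = 0.960).

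The number of called count interactions varied with the libraries used. Without dcat/dcat busulfan replicate 2 it was 3 (Prm2, Spem1 and 4933411K16Rik), without dcat/dcat busulfan replicate 1 it was 257, and without the deeper dcat/dcat vehicle library, replicate 2, it was 164. The fits without wt/wt vehicle replicate 1, wt/wt vehicle replicate 2 and wt/wt busulfan replicate 1 each called 3, and those without wt/wt busulfan replicate 2 and dcat/dcat vehicle replicate 1 each called 6. Prm1 and Tnp1 were called in 3 of the 8 fits without 1 library, Cby2 and Spata6 in 3, Tnp2 in 4 and Gapdhs in 2, with adjusted p up to 0.415. The interaction of all 9 was above 0 in each of the 8 fits. Their choice favours this, since each fit keeps all but 1 of the libraries by which they were called.

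**Figure D5:**
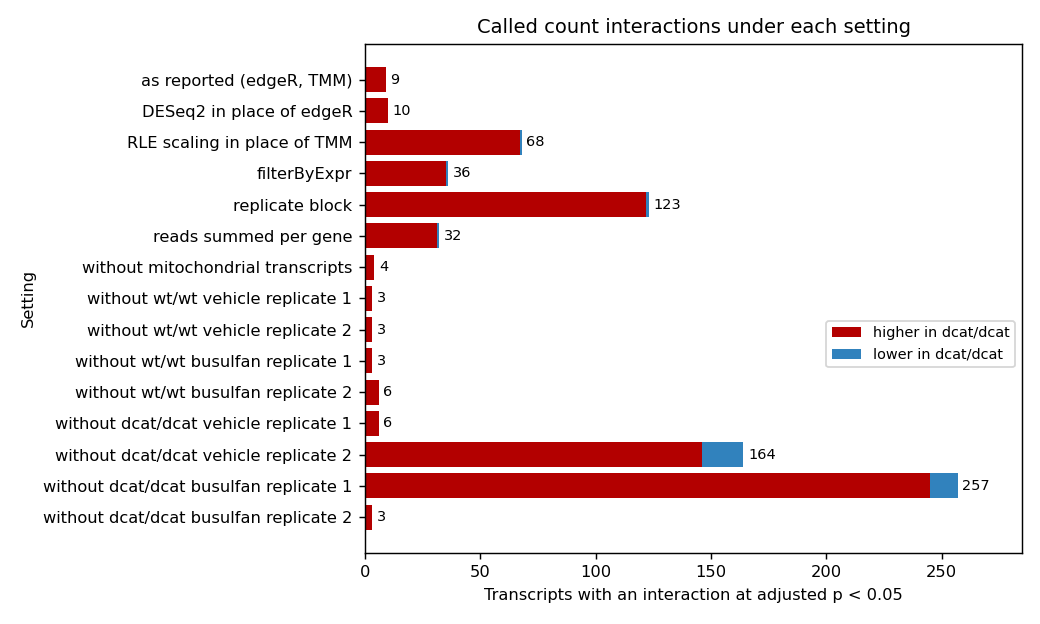
Number of transcripts with a count interaction at an adjusted p under 0.05 in the reported fit (9), under each other method and without each library in turn, with those higher in dcat/dcat in red and those lower in blue. The count ran from 3 to 257.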

How the data were processed

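Whole-testis poly(A) RNA of 8 mice was sequenced directly on Nanopore flow cells. Per the methods, the authors basecalled with Guppy, aligned to GENCODE vM17 (build mm10 per the labels) with minimap2 (version 2.20-r1061 in the submitters' processing notes), estimated tails with Nanopolish and dropped transcripts under 10 reads unless both replicates of some group reached that number. They deposited raw read counts per transcript and a tail length in nt per read (a score per read, with no depth of its own). Deposited tables of the authors' DESeq2 comparisons (fold changes and adjusted p-values) were not used.

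The members and gene lists were chosen with earlier results of these data known. Here, 621202 reads over 2783 transcripts were used, and symbols and coordinates came from GENCODE vM21 (2738 matched) on the same build. Counts were fitted with edgeR 4.0.16 (quasi-likelihood, TMM, 4 group means), tails with limma 3.58.1 (trended eBayes on mean tails, minimum 10 reads), in R 4.3.3, and Benjamini-Hochberg adjustment ran over every transcript of a table. The scripts were tested on simulated data. Named transcripts were a fixed list of 11, called transcripts with at least 5 reads in each group by size, those with the smallest adjusted p, and for tails the 5 per direction with the smallest p, while other names were chosen after their values were seen. The exact counting intervals and the Wilson intervals cover counting error only, while the bars of the count interaction figure are 1.96 SE of the edgeR fit. The labels say that a replicate number is a shared multiplexed library, so the numbers pair the mice. As a check, deviations of same-numbered libraries from their group means correlated between -0.16 and 0.34 for counts and between 0.01 and 0.06 for tails. Counts of replicate pairs differed beyond sampling noise (chi-square per degree of freedom 1.29 to 2.58), so none was treated as a repeat deposit. Alternatives were DESeq2 1.42.0, RLE scaling, edgeR's low-count filter, the replicate block, sums per gene, other tail summaries and leaving out each library.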

Additional observations from a re-analysis of the deposited data

Results flagged for a closer look

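The results picked out here are the transcripts for which the busulfan responses of the genotypes differed by the test of the interaction itself. For read counts the log2 interactions were 3.40 for 4933411K16Rik, 2.72 for Prm2, 4.96 for Spem1, 2.93 for Tnp2, 2.94 for Prm1, 6.85 for Cby2 (a fitted value against 0 reads, so no bound), 4.33 for Spata6, 2.82 for Tnp1 and 2.78 for Gapdhs. For the mean tail they were -46.5 nt for Insl3, -60.8 nt for Jak3 and 51.8 nt for Oaz3. Groups of 2 mice were too small to look for single outlying samples.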

How the results depend on the processing

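With 2 mice a group, the number of calls depended on the processing, and in fits without 1 library the lone mouse of its group is assumed to vary like the others. The 9 called count interactions became 68 with RLE scaling, 36 with edgeR's low-count filter, 123 with the replicate block, 32 with reads summed per gene, 4 without mitochondrial transcripts and 10 with DESeq2, and from 3 to 257 without 1 library. All 9 were among the calls of each of these fits except those without mitochondrial transcripts and without 1 library. The 3 tail calls became 1 with a minimum of 5 reads, 1 with the median tail, 5 on the log2 scale, 8 with libraries centred, 0 without the variance trend (limma, 24 at an unadjusted p under 0.05), 1 with all reads of a gene and 1 to 3 without 1 library, and the replicate block called 3. The causes were not tested.

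Values that turned sign were those of transcripts without a call. For read counts these were Ptgds (0.000292 per gene, -0.66 to 0.20 without 1 library), Smcp (-0.0106 with the low-count filter, -0.17 per gene, -0.0421 without mitochondrial transcripts, -0.25 to 0.79 without 1 library) and Odc1 (-0.0162 with the filter, -0.0679 without mitochondrial transcripts, -0.55 to 0.40 without 1 library). For tails these were Tent5c (-18.7 to 9.95 nt), Prm2 (-10.3 to 25 nt) and Tnp1 (-4.68 to 18.1 nt), all without 1 library. The interaction of the mean tail over all reads ran from -5.79 to 4.26 nt and that of the mitochondrial share from -1.68 to 0.51 percentage points without 1 library. Depth limits the transcripts with few reads, since 3 reads are 23.2 to 101 CPM in these libraries.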
